A study of Mus musculus with 9 samples.

Results

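Olig1, Olig2, Sox8, Sox10, Nkx2-2 and Cspg4 are 6 genes chosen by name for their known parts in the making of oligodendrocyte precursors, out of 54232 genes in the deposited count table. All 6 were measured and all 6 passed the expression filter that kept 17602 genes. The RNA came from primary mouse embryonic neural stem cells, labelled as brain subventricular zone, kept in proliferation medium on laminin with FGF and EGF. The cells received a short hairpin RNA against Phf2, which encodes a histone demethylase of the KDM7 family, or a hairpin with no target. The groups were sh900 and sh902, which both target Phf2, and the non-targeting shNT, with 3 libraries each and RNA taken 3 days after treatment. Each group held 1 library with no date in its title, 1 dated 30 August and 1 dated 3 September, and values are given in that order below. In ratios and fits the 3 undated libraries are treated as sharing a label, although they share only the lack of a date. The labels do not say what the dates stand for, nor whether libraries of a group came from separate cultures or animals. The p-values therefore reflect library-to-library spread only, some of which may be technical. All groups carried a hairpin, and no untreated cells were among the samples analysed here.

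Oligodendrocytes, the myelinating cells of the central nervous system, arise from precursors that neural stem cells set aside in steps. Olig2 and Olig1, basic helix-loop-helix proteins, act first: Olig2 is needed to specify the lineage, and both stay on in its cells. The SOXE proteins Sox8 and Sox10 follow, with Sox10 placed directly downstream of Olig2 and later driving myelin genes. Nkx2-2 is a homeodomain repressor that marks precursors entering differentiation, and Cspg4 encodes NG2, a surface proteoglycan by which precursors are recognised. Olig2 is also expressed in proliferating neural progenitors in culture, so its RNA alone does not mark a precursor.

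Libraries held between 23212472 and 32392496 estimated counts each, and levels are given as CPM, the counts of a gene scaled to 1 common library size with TMM factors. Phf2 itself stood at 19.8, 14.9 and 25.5 CPM in sh900 cells, at 25.0, 16.96 and 28.1 CPM in sh902 cells and at 56.3, 52.8 and 48.6 CPM in shNT cells. It was lower in every library of either hairpin than in every control. RNA for the neural stem cell markers Sox2 and Vim was present throughout, between 167 and 346 CPM and between 1759 and 7563 CPM. Other such markers went in both directions. With the date label in the fit, as given below, Nes and Vim were higher with the hairpins and Hes5 and Prom1 lower. The 10 proliferation genes summed to 636 to 1244 CPM in sh900 cells and 845 to 1522 CPM in sh902 cells, all inside the 178 to 2672 CPM span of the shNT libraries. In that span the 3 September control was the lowest of the 9 libraries and the 30 August control the highest. With both hairpins the sum was thus below the control on 30 August. It was above the control on 3 September and among the undated libraries.

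Of the 6 genes, Sox8 was the one that stood lower than the control of the same date label in all 6 hairpin libraries. Of all tested genes, 12% did so. Sox10 was lower in the 4 hairpin libraries that are undated or dated 3 September, and nearly silent in all 3 libraries of 30 August. Olig1 and Olig2, among the most abundant transcripts of these cells, were not called changed with either hairpin. Cspg4 was lowest in the sh902 libraries, and Nkx2-2 differed between the date labels but was not called with either hairpin. In edgeR's fit without a term for the date label, none of the 6 and 0 of the 17602 genes passed a Benjamini-Hochberg adjusted p of 0.05 for the mean of both hairpins against shNT, while 2809 genes, or 16%, had an unadjusted p under 0.05. DESeq2 in the same design called 755 genes and 0 of the 6, and limma-voom called 0. With a replicate block for the date label, edgeR called 2 of the 6, both lower (for the mean of both hairpins), against 11.7% of all tested genes in either direction and 5.59% lower. The 2 were Sox8 and Sox10. In bulk RNA, fewer cells of a type and less RNA per cell cannot be told apart.

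**Figure D1:**
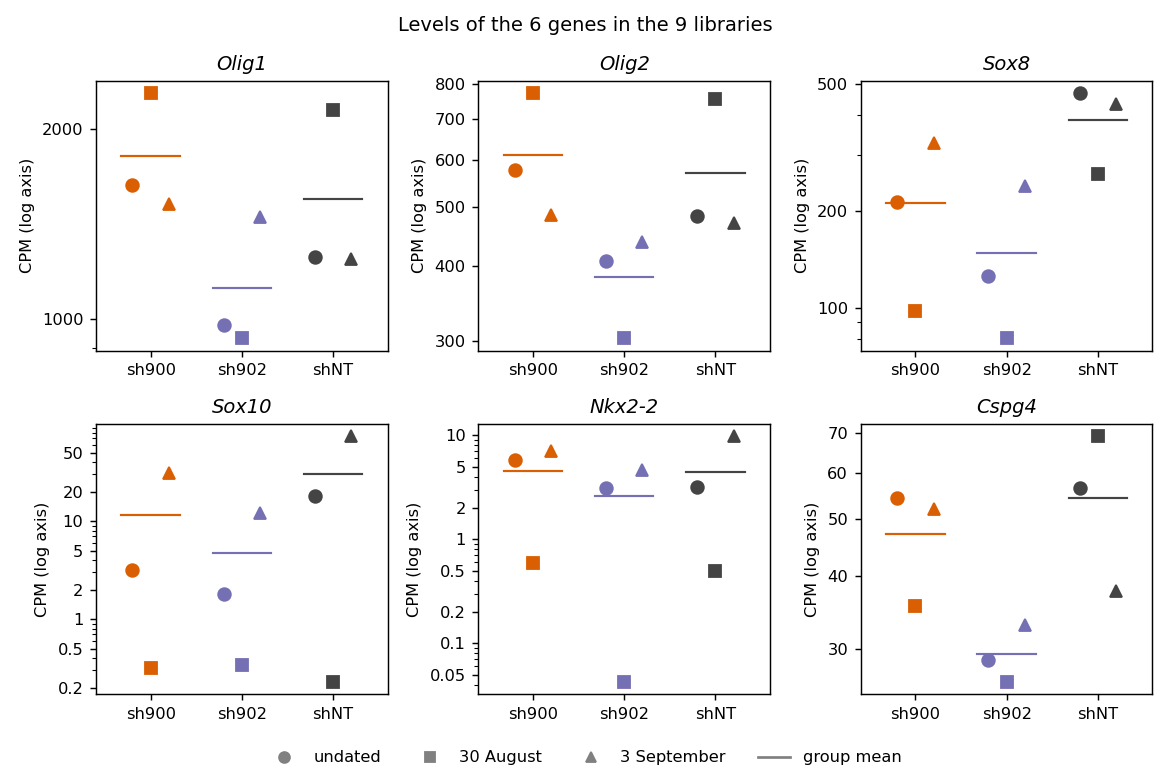
Level of each gene in the 9 libraries, in CPM on a log axis, by group from left to right (sh900, sh902, shNT); circles are undated libraries, squares 30 August and triangles 3 September, and lines are group means of 3. Sox8 was lower in each hairpin library than in the control of the same label, as were 12% of tested genes. The squares of Sox10 and Nkx2-2 lie lowest in every group.

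The promoters of Sox8 and Olig2 are shown for comparison. With the block edgeR called Sox8 with each hairpin and Olig2 with neither, and without the block it called neither gene. Each window runs from 250 bases before to 50 bases after the start site that RefSeq gives on GRCm38.p6, and 4 of the 6 genes had one in the table used. Capitals mark the E-box CANNTG, the sequence bound by basic helix-loop-helix proteins, and the SOX core ACAAT, both searched on either strand.
Sox8 (chr17:25570637-25570936, minus strand): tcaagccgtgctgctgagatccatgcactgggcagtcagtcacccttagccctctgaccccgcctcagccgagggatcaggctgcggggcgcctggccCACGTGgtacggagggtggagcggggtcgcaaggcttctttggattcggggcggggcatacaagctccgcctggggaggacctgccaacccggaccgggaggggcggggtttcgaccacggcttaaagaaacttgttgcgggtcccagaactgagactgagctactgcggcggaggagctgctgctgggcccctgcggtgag
Olig2 (chr16:91225300-91225599, plus strand): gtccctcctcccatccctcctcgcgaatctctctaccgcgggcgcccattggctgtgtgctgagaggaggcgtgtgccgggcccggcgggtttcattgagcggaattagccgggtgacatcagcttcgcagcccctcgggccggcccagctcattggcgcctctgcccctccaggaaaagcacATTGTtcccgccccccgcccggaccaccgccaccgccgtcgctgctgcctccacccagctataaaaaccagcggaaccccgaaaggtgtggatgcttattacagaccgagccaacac
The Sox8 window held 1 E-box, CACGTG, 152 bases before the start, and no ACAAT. The Olig2 window held no E-box and 1 ACAAT, written ATTGT on the plus strand, 67 bases before the start. Of 32841 mouse promoters of this length, 72.3% held the E-box and 31% the SOX core. Both windows were rich in CpG, with 21 sites in Sox8 and 25 in Olig2 against a median of 7, and their GC content was 66.3% and 65%, above 84.3% and 81.7% of promoters. A letter match is a description of the sequence and not a bound site. The Sox8 window also lies inside the span of an antisense gene, 2810468N07Rik (chr17:25570358-25575043, plus strand), which is taken up with Sox8 below.

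Olig1 and Olig2, the helix-loop-helix pair, lie in the same orientation on chromosome 16 with 41094 bases between them (Olig2 at chr16:91225457-91228677, Olig1 at chr16:91269772-91271933, GRCm38). Olig1 stood at 1632, 2277 and 1522 CPM in sh900 cells, at 977, 931 and 1449 CPM in sh902 cells and at 1254, 2139.8 and 1245 CPM in shNT cells. The sh900 and control libraries overlapped. All 3 sh902 libraries lay below all 3 sh900 libraries, as for 11.3% of tested genes, but not below all controls. With the date label as a block, Olig1 was 0.24 ± 0.26 log2 (SE) above shNT in sh900 cells and -0.42 ± 0.26 in sh902 cells, with edgeR adjusted p of 0.582 and 0.330. Olig2 gave the same order on a lower scale: 578, 772 and 485 CPM in sh900 cells, 408, 303 and 438 CPM in sh902 cells and 483, 757 and 471 CPM in shNT cells. All 3 sh902 libraries lay below all controls, as for 10.9% of tested genes, and below all sh900 libraries, as for 11.3%. Those of sh900 and control overlapped. The blocked log2 fold changes of Olig2 were 0.11 ± 0.24 for sh900 and -0.53 ± 0.25 for sh902 (edgeR adjusted p 0.819 and 0.20).

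For both genes sh902 stood furthest below the same-label control on 30 August, where that control was the highest of the controls. Olig1 in sh902 cells was at 77.9% of the same-label control among undated libraries, 43.5% on 30 August and 117% on 3 September. Olig2 in sh902 cells was at 84.3%, 40.1% and 93.0% of it in the same order. In sh900 cells Olig1 lay between 106% and 130% of the same-label control and Olig2 between 102% and 119.5%. Both genes kept a narrow ratio to each other. Olig1 exceeded Olig2 by 2.83- to 3.14-fold in the CPM of sh900 libraries, 2.40- to 3.31-fold in sh902 libraries and 2.59- to 2.83-fold in shNT libraries. Over the 9 libraries their log2 CPM correlated at r = 0.944, and at 0.965 after removal of each label's mean; these points share libraries, scaling and labels, and the value is a description. Gm15966, a lincRNA on the other strand that shares 157 exon bases with Olig1, stayed at or under 0.649 CPM in all 9 libraries.

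Sox8 (chr17:25565892-25570686, minus strand), a SOXE transcription factor gene, stood at 213, 97.9 and 326 CPM in sh900 cells, at 125, 80.2 and 239.6 CPM in sh902 cells and at 467, 261 and 431 CPM in shNT cells. Every hairpin library was below its same-label control, at 37.5% to 75.4% of it for sh900 and 26.8% to 55.5% for sh902. The value of 26.8% is that of the undated pair. Of all tested genes, 12% were lower in 6 of 6 such pairs. The sh902 libraries lay below all 3 controls, as did those of Olig2 and Cspg4 among the 6 genes (10.9% of tested genes), while the sh900 library of 3 September exceeded the 30 August control. Group means were 212 ± 114 CPM for sh900, 148 ± 82.2 CPM for sh902 and 387 ± 109.8 CPM for shNT (SD, n = 3 each).

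For the mean of both hairpins the log2 fold change of Sox8 was -1.12 ± 0.42 without the block, with an edgeR adjusted p of 0.273, and -1.25 ± 0.18 with it, with an adjusted p of 0.00849. With the block each hairpin passed against shNT, sh900 at -1.004 ± 0.22 (edgeR adjusted p 0.0315) and sh902 at -1.50 ± 0.22 (0.00997). Of all tested genes, 8.85% were called with sh900 and 10.5% with sh902, 3.45% and 5.39% being lower calls. Both comparisons share the 3 shNT libraries, so they are not independent of each other. The two-sided exact permutation test of all 6 hairpin libraries against the 3 controls, which ignores the labels, gave p = 0.0476 for Sox8 and 0.286 after Benjamini-Hochberg adjustment over the 6 genes tested. The blocked call for the mean of both hairpins was kept in 8 of 9 fits that each left out 1 library and lost without the undated control (adjusted p 0.0685). The sh902 call was kept in 7 of 9, lost without the undated control or the undated sh902 library, and the sh900 call in 3 of 9. It was lost without the undated control, any 1 of the sh900 libraries, or the undated or 3 September sh902 library. Over these fits the mean stayed between -1.54 and -1.08 on the log2 scale. Smaller blocked fits also lost the calls. In the 6 dated libraries alone Sox8 was at -1.13 for the mean, -0.94 for sh900 and -1.32 for sh902 (edgeR adjusted p 0.141, 0.292 and 0.162). With only the 2 compared groups in the fit it was at -0.99 for sh900 and -1.48 for sh902 (edgeR adjusted p 0.0704 and 0.069).

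The antisense gene 2810468N07Rik shares 329 exon bases with Sox8, and a strand setting of the counting is not given in the sources used here, so reads in the shared stretch cannot be told apart. It stood at 8.97, 2.65 and 27.9 CPM in sh900 cells, at 8.62, 4.83 and 20.3 CPM in sh902 cells and at 32.3, 8.19 and 49.9 CPM in shNT cells. Like Sox8 it was lower than the same-label control in all 6 hairpin libraries, with a blocked log2 fold change of -1.37 ± 0.24 for the mean of both hairpins (edgeR adjusted p 0.0125). Without the block it did not pass, at -1.31 ± 0.76 (edgeR adjusted p 0.406). Its counts amounted to 2.71% to 11.6% of those of Sox8.

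Sox10 (chr15:79154908-79165240, minus strand), the SOXE gene needed for myelination, stood at 3.15, 0.317 and 31.2 CPM in sh900 cells, at 1.80, 0.342 and 12.03 CPM in sh902 cells and at 17.9, 0.231 and 73.1 CPM in shNT cells. The 30 August values rest on 8, 8 and 6 counts in sh900, sh902 and shNT cells, so no hairpin difference was detectable there at this depth. Among undated libraries Sox10 in sh900 and sh902 cells was at 17.6% and 10.1% of the control, and on 3 September at 42.7% and 16.5%. With the block the log2 fold change was -1.99 ± 0.47 for the mean of both hairpins (edgeR adjusted p 0.0405), -1.51 ± 0.56 for sh900 (0.141) and -2.47 ± 0.60 for sh902 (0.0476). Without the block the mean was -2.04 ± 1.52 with an edgeR adjusted p of 0.503. Each of the 2 blocked calls was kept in 2 of 9 fits that left out 1 library, namely without the 30 August control and without the 30 August sh902 library. Blocked fits of the dated libraries alone or of only the compared groups did not call Sox10 against shNT.

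**Figure D2:**
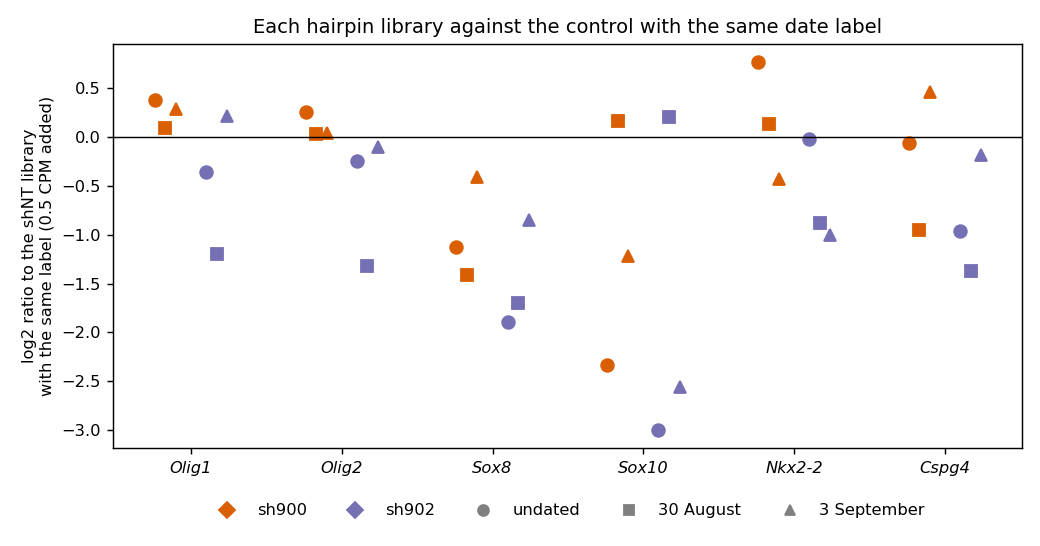
log2 ratio of each hairpin library to the shNT library with the same date label, after adding 0.5 CPM to both; colour gives the hairpin (sh900 left, sh902 right of each gene) and shape the label, and 0 is no difference. All 6 points of Sox8 lie below 0, as for 12% of tested genes, and run from -1.89 to -0.41. The 2 points of Sox10 on 30 August lie just above 0 on few counts.

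Nkx2-2 (chr2:147177546-147194243, minus strand), the homeodomain repressor, had the lowest mean CPM of the 6, although Sox10 was lower in 4 of 9 libraries. It stood at 5.76, 0.594 and 7.12 CPM in sh900 cells, 3.14, 0.0427 and 4.61 CPM in sh902 cells and 3.18, 0.4999 and 9.73 CPM in shNT cells. The groups overlapped, and the sh902 library of 30 August held 1 count. Blocked log2 fold changes were 0.19 ± 0.46 for sh900 and -0.90 ± 0.46 for sh902, with edgeR adjusted p of 0.830 and 0.243. Its antisense gene Nkx2-2os shares 278 exon bases with it and stayed at or under 0.329 CPM.

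Cspg4 (chr9:56865033-56899870, plus strand), the NG2 proteoglycan gene, stood at 54.2, 35.5 and 52.0 CPM in sh900 cells, at 28.8, 26.4 and 33.1 CPM in sh902 cells and at 56.4, 69.1 and 37.7 CPM in shNT cells. All sh902 libraries lay below all controls, as for 10.9% of tested genes, and below all sh900 libraries, as for 11.3%. The share below both groups at once was not counted, and sh900 overlapped the controls. For sh902 the log2 fold change was -0.88 ± 0.26 with the block (edgeR adjusted p 0.0687) and -0.89 ± 0.25 without it (0.202), and DESeq2 without the block called it (adjusted p 0.0438). For sh900 the blocked value was -0.21 ± 0.26 (edgeR adjusted p 0.646). Pericytes also express Cspg4, and of 10 pericyte and mural cell genes 4 passed the filter. For the mean of both hairpins with the block 1 of them, Pdgfrb, was lower (log2 fold change -3.37 ± 0.77, edgeR adjusted p 0.0309). Of all tested genes 5.59% were called lower in that fit, and without the block none of the 4 pericyte genes was called. Pdgfrb had 0 counts in the 30 August control and 119 in that of 3 September. The other 3, Acta2 at 1.51, Rgs5 at 0.55 and Notch3 at 0.06, did not pass, and the median of the 4 was 0.31. The 10 genes summed to 269 to 396 CPM in sh900 cells, 185 to 244 CPM in sh902 cells and 151 to 278 CPM in shNT cells. The part of such cells in the Cspg4 values was not tested.

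Between the hairpins, sh902 stood below sh900 in all 3 same-label pairs for every gene but Sox10, which did so in 2 of 3; 26.6% of tested genes showed 3 of 3. The 3 sh902 libraries lay wholly below the 3 sh900 libraries for Olig1, Olig2 and Cspg4, as they did for 11.3% of tested genes. With the block, edgeR called none of the 6 and 743 of all genes, or 4.22%. The log2 differences of sh902 against sh900 ran from -1.09 ± 0.46 for Nkx2-2 to -0.50 ± 0.22 for Sox8. They were -0.66 ± 0.26 for Olig1, -0.63 ± 0.25 for Olig2, -0.68 ± 0.26 for Cspg4 and -0.96 ± 0.60 for Sox10, and edgeR adjusted p values of the 6 lay between 0.170 and 0.408. Phf2 was not lower in sh902 than in sh900 cells (log2 difference 0.22 ± 0.19, edgeR adjusted p 0.550, blocked). The median over all tested genes in this contrast was 0.01.

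**Figure D3:**
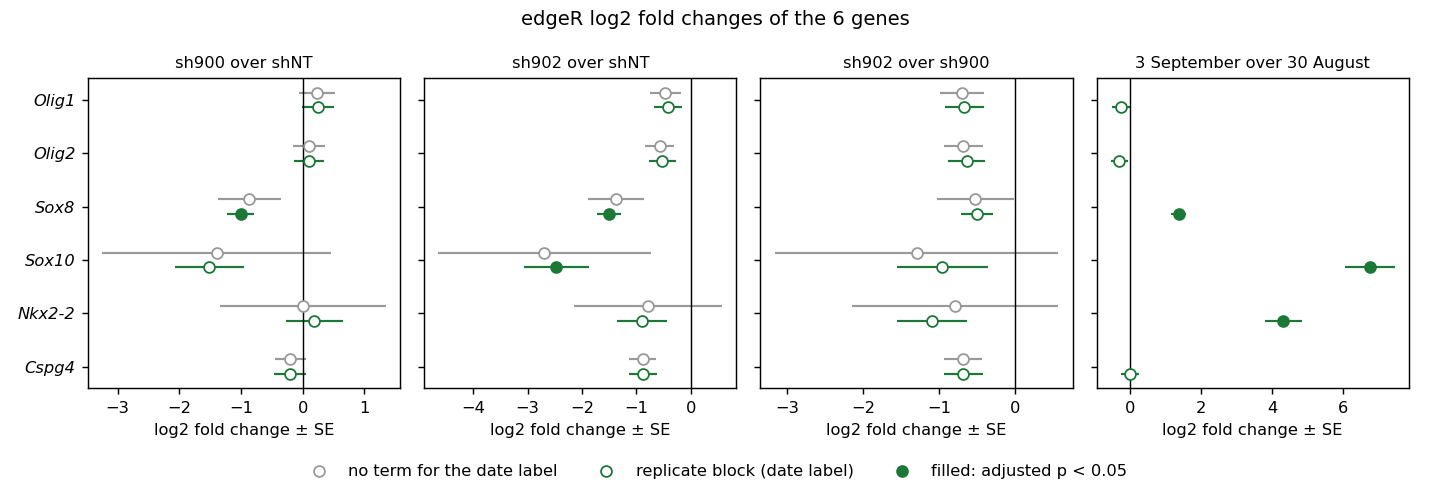
edgeR log2 fold change of each gene with its standard error as a bar, for sh900 over shNT, sh902 over shNT, sh902 over sh900 and 3 September over 30 August; grey is the fit with no term for the date label, green the fit with it, and filled points have an adjusted p under 0.05. Sox8 is filled with both hairpins and Sox10 with sh902, all with the block, and the 6 differences between hairpins lie left of 0.

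The 6 genes differed in how they stood between the date labels. In the 3 September against the 30 August libraries, with the hairpin group in the model, edgeR called Sox8, Sox10 and Nkx2-2 higher, 3 of 6, against 20.5% of all genes in either direction and 10.4% higher. The log2 differences were 1.36 ± 0.22 for Sox8 (edgeR adjusted p 0.00586), 6.74 ± 0.70 for Sox10 (0.00209) and 4.31 ± 0.52 for Nkx2-2 (0.00195). All 3 libraries of 3 September exceeded all 3 of 30 August for Sox10 and Nkx2-2, as for 16.1% of tested genes, and those of Sox8 overlapped. Olig1, Olig2 and Cspg4 were not called, at -0.25 ± 0.26, -0.30 ± 0.25 and -0.00 ± 0.26 (edgeR adjusted p 0.524, 0.411 and 0.993). These values average over groups that differed in opposite directions. From 30 August to 3 September Cspg4 went from 69.1 to 37.7 CPM in shNT cells. In sh900 cells it went from 35.5 to 52.0 CPM and in sh902 cells from 26.4 to 33.1 CPM. Olig1 and Olig2 were lower on 3 September in sh900 and shNT cells and higher in sh902 cells. The 3 calls were kept in all 9 fits that left out 1 library. The 10 astrocyte genes moved with the same labels: 8 were called higher on 3 September and none lower, with a median log2 difference of 3.20. So did 7 of 9 tested neuronal genes (median 1.56) and 13 of 19 tested precursor genes beside the 6 (median 1.46), with none lower. Of 13 tested genes of committed and myelinating cells 6 were called higher and 1 lower (median 1.30). None of the 10 proliferation genes was called, and all 10 had negative log2 differences, with a median of -0.83. The groups differed in direction here too. From 30 August to 3 September their sum went from 2672 to 178 CPM in shNT cells. In sh900 cells it went from 636 to 956 CPM and in sh902 cells from 845 to 1374 CPM. The part of these lists in the 3 calls was not tested.

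Within a library, the place of Sox10 beside Sox8 changed with the date label. Per kilobase of exon it reached 9.80%, 5.13% and 17.3% of the Sox8 level in sh900, sh902 and shNT cells of 3 September, and 0.331%, 0.436% and 0.0902% on 30 August. Sox8 in turn had 10.3% to 54.5% of the Olig2 level per kilobase in sh900 libraries, 21.5% to 44.4% in sh902 libraries and 28.0% to 78.4% in shNT libraries. No hairpin library reached the ratio of its same-label control. The difference between the hairpin effects of 3 September and 30 August was tested in an edgeR interaction model, and none of the 6 passed (adjusted p 0.740 to 0.998), against 1.39% of all genes.

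**Figure D4:**
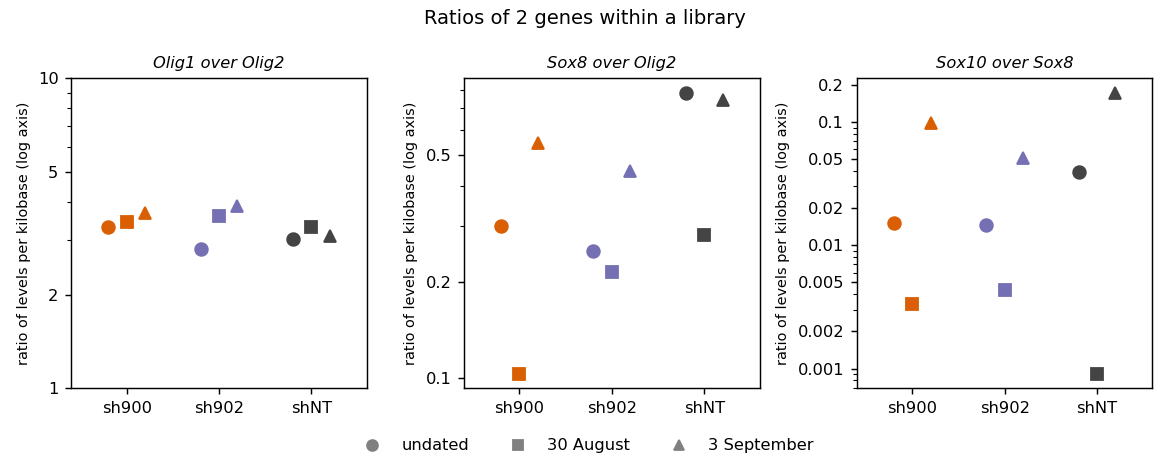
Ratio of the levels per kilobase of 2 genes within each library, on a log axis, for Olig1 over Olig2, Sox8 over Olig2 and Sox10 over Sox8, by group (sh900, sh902, shNT) with shapes for the date label. Olig1 over Olig2 stays between 2.81 and 3.87 in all 9 libraries, while Sox10 over Sox8 is lowest in the 30 August library of each group.

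Per kilobase of exon, a scale that lets genes be compared, the order of mean levels over the 9 libraries was Olig1 at 690.1, Olig2 at 206, Sox8 at 79.9, Sox10 at 5.10, Cspg4 at 3.66 and Nkx2-2 at 1.34 CPM per kilobase. Olig1 ranked 40 and Olig2 151 among 17584 tested genes with a length, and 97.2% of genes lay below Sox8. Cspg4, Sox10 and Nkx2-2 stood near or under the middle, above 48.55%, 55.5% and 33.3% of genes. The library ranges of Olig1, from 431 to 1053, did not meet those of Olig2, from 119.8 to 305, whereas Olig2 overlapped Sox8, from 25.7 to 149.7. Sox10, from 0.0756 to 24.0, overlapped both Cspg4, from 2.22 to 5.79, and Nkx2-2, from 0.0149 to 3.38, so the order of these 3 depends on the library. The SD of log2 CPM over the libraries was 2.501 for Sox10, 1.48 for Nkx2-2, 0.91 for Sox8 and 0.43 to 0.48 for the others, against a median of 0.37 over all tested genes.

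The genes whose levels were most like the mean of the 6 standardised log2 profiles over the 9 libraries were Ank2 (r = 0.973), Hp1bp3, Cc2d2a, Sirt6, Ccdc85c and Spin1 (r = 0.962), out of 10880 genes with a mean of at least 5 CPM. On deviations from each label's mean they were Uri1 (r = 0.995), Wwc2, Eif4ebp2, Spin1, Nrde2 and Atf7ip (r = 0.983). Spin1 alone was on both lists. These are descriptions over 9 libraries that share their scaling and labels.

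Of 20 other genes known in oligodendrocyte precursors 19 were tested. For the mean of both hairpins with the block 10 passed, all lower, against 5.59% of all tested genes called lower. The median log2 fold change was -0.95, against -0.02 over all tested genes and -0.45 over the 6. Without the block no gene of this list passed. Pdgfra, the receptor that carries the mitogen signal in precursors, stood at 15.4, 6.73 and 124 CPM in sh900 cells, at 14.6, 6.11 and 57.6 CPM in sh902 cells and at 74.7, 11.1 and 266 CPM in shNT cells. Dll3, a Notch ligand, was at 18.7, 7.25 and 61.5 CPM in sh900 cells, at 10.6, 5.55 and 41.1 CPM in sh902 cells and at 151, 22.8 and 178 CPM in shNT cells. Both genes were below the same-label control in all 6 hairpin libraries, as were 12% of tested genes. With the block both were called lower, with log2 fold changes of -2.42 ± 0.30 for Dll3 and -1.63 ± 0.28 for Pdgfra (edgeR adjusted p 0.00735 and 0.0159). Sox6 and Sox5, SOXD proteins that keep precursors from maturing, were lower at -0.83 ± 0.13 and -0.63 ± 0.11 (edgeR adjusted p 0.0101 and 0.0134). Neu4, a sialidase, fell by 2.74 ± 0.47 (edgeR adjusted p 0.0128) on few counts. Ptprz1, at 1629.7 to 2919 CPM, did not pass (-0.35 ± 0.12, edgeR adjusted p 0.0975).

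Of 17 genes of committed and myelinating oligodendrocytes 13 were tested. With the block 3 passed, all lower, against 5.59% of all tested genes called lower, and without it none did. The blocked median log2 fold change was -0.90. Gpr17, a receptor of committed precursors, stood at 4.86, 0.634 and 89.1 CPM in sh900 cells, at 1.95, 0.812 and 17.1 CPM in sh902 cells and at 62.3, 6.19 and 375 CPM in shNT cells. It fell by 3.61 ± 0.40 on the log2 scale with the block (edgeR adjusted p 0.00731). The myelin gene Mbp and Ugt8a, which makes a myelin lipid, had log2 fold changes of -1.91 ± 0.29 and -1.84 ± 0.31 (edgeR adjusted p 0.00975 and 0.0114). Cnp, another myelin gene, did not pass (-1.08 ± 0.30, edgeR adjusted p 0.0617). The 3 called genes were highest in the 3 September control.

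**Figure D5:**
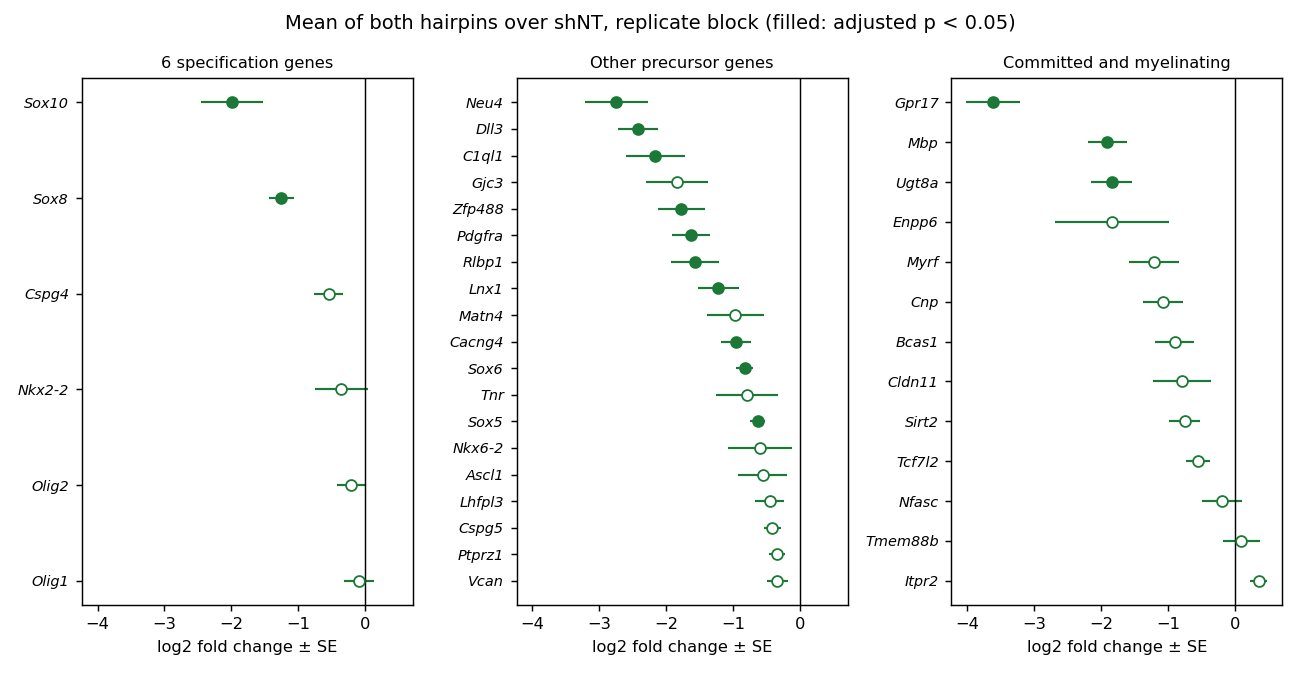
edgeR log2 fold change with its standard error for the mean of both hairpins over shNT in the fit with the replicate block, for the 6 genes, the 19 other precursor genes tested and the 13 genes of committed and myelinating cells tested; filled points have an adjusted p under 0.05. Filled points number 2, 10 and 3, all left of 0, and Olig1 and Olig2 lie nearest 0 among the 6.

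Upstream of the 6 genes the picture was mixed. Of 21 signals and regulators 2 rose and 5 fell with the block, and none was called without it. Over all tested genes the blocked fit called 6.08% higher and 5.59% lower. Shh, the ligand that induces Olig2 in the ventral neural tube, stood at 8.84, 0.198 and 1.36 CPM in sh900 cells, at 29.3, 0.940 and 5.52 CPM in sh902 cells and at 0.365, 0.0769 and 0.229 CPM in shNT cells. Shh was higher than the same-label control in all 6 hairpin libraries, as were 12.8% of tested genes. Its log2 fold change was 4.37 ± 0.51 (edgeR adjusted p 0.00497). All controls were at or under 0.365 CPM, so the size of this change rests on few counts. Pdgfa, the ligand of Pdgfra, stood at 63.8, 154 and 21.7 CPM in sh900 cells, at 65.5, 191 and 27.9 CPM in sh902 cells and at 12.3, 35.7 and 8.62 CPM in shNT cells (2.05 ± 0.19, edgeR adjusted p 0.00377). Dlx2, which favours interneuron over oligodendrocyte fate, and Bmp4, a signal that opposes the lineage and here had very few counts, were lower at -2.03 ± 0.33 and -3.57 ± 0.64 (edgeR adjusted p 0.0109 and 0.0137). Of 16 partners of the 6 proteins, none was called without the block, and with it 4 fell and none rose. They were Tcf4, a dimer partner of Olig proteins, at -0.74 ± 0.11, and Chd7, a chromatin remodeller that works with Sox10, at -0.61 ± 0.13 (edgeR adjusted p 0.00849 and 0.0220). The SOXC genes Sox11 and Sox4 followed at -0.87 ± 0.14 and -1.05 ± 0.21 (edgeR adjusted p 0.0111 and 0.0183).

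Markers of other cells were called in the blocked fit as well, and none was called without the block. The blocked shares over all tested genes were 6.08% higher and 5.59% lower. Of 10 astrocyte genes 3 fell, of 9 tested neuronal genes 5 fell and none of either list rose; log2 fold changes were -2.59 ± 0.38 for Aqp4 and -2.86 ± 0.52 for Tubb3 (edgeR adjusted p 0.0127 and 0.0237, blocked). The astrocyte genes summed to 2392 to 9650 CPM in sh900 cells, 1888 to 6613 CPM in sh902 cells and 2816 to 16600 CPM in shNT cells. The neuronal genes summed to 622 to 1132 CPM, 481 to 908 CPM and 699 to 2009.6 CPM in sh900, sh902 and shNT cells. Of 10 neural stem cell genes Nes and Vim rose, at 1.66 ± 0.21 and 0.95 ± 0.15, and Hes5 and Prom1 fell, at -2.09 ± 0.40 and -1.83 ± 0.38 (edgeR adjusted p 0.00628, 0.00975, 0.0260 and 0.0236). Of 8 tested Schwann and neural crest genes, which Sox10 also marks, 1 fell, Dct, and none rose. Their median log2 fold change was 0.26, with 3 of 8 negative, and Pmp22 at 0.81, Cdh19 at 0.73 and Tfap2a at 0.52 did not pass. The 10 genes of this list summed to 28.9 to 89.4 CPM in sh900 cells, 36.9 to 70.6 CPM in sh902 cells and 36.4 to 44.5 CPM in shNT cells. Of 3 tested endothelial genes 1 fell, Kdr, while Tek at 0.39 and Flt1 at 0.27 did not pass. Neither the 1 tested microglial gene nor any of 10 proliferation genes passed. Foxd3, a neural crest marker, was at 0 in all sh902 libraries, and so was Cx3cr1 of microglia. Cdh5 of endothelium was at 0 in all sh900 and all sh902 libraries, and Tie1 of endothelium in all shNT libraries. None of these genes passed the expression filter, so no difference between groups was tested for them. The part of these cells in the values of the 6 genes was not tested.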

How the data were processed

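Estimated counts per gene for 9 libraries were deposited by the authors as whole numbers. Per the submitters' processing notes FastQC, cutadapt, Trimmomatic 0.36, STAR 2.5.0a and RSEM were used with GRCm38; settings and annotation are not stated in the sources used here. RSEM divides reads that fit several genes by a model, so overlapping and antisense genes are uncertain. Per the labels' protocols, RNA was fragmented and copied with random primers, which leaves strand unstated. Symbols, exons and coordinates came from GENCODE M21 on GRCm38 (54079 of 54232 identifiers matched), and promoters from RefSeq.

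Counts were tested in R 4.3.3 with edgeR 4.0.16 (quasi-likelihood F test, robust, TMM, default expression filter, Benjamini-Hochberg over 17602 genes holding 99.9% of counts, calls at an adjusted p under 0.05). Standard errors are the fold change over the square root of F. The main design had no block. Libraries with the same date in their titles were taken as paired: correlations of their deviations from group means were 0.395 to 0.691 on 30 August and 0.484 to 0.709 on 3 September. The undated ones, at 0.11 to 0.516, share only the lack of a date. Many fold changes are given with the block alone, without the unblocked value beside them. In the main design edgeR called 0 of the 17602 genes for the mean of both hairpins, sh900 or sh902 against shNT. It also called 0 for sh902 against sh900, so every edgeR call reported for a named gene in these comparisons needs the block. Over 20 splits of 3 against 3 libraries no two-sided exact permutation p can fall below 0.1. Intervals from counts cover counting error only. No 2 libraries of the same group agreed within sampling noise.

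The 6 genes and all lists were chosen with earlier results of these data known. All 6 are named, and of each list up to 4 genes with the smallest p for the mean of both hairpins in the blocked fit, plus Pdgfra, Ptprz1 and Sox2 as markers. 1 gene was left out of a list and is not reported here. Alternatives were DESeq2 1.42.0, limma-voom 3.58.1, RLE factors, library size alone, other filters, fewer groups, a fit on dated libraries alone, and leaving out each library. The code was tested on simulated data, where the blocked fit made a larger share of false calls than its threshold allows and the fit without the block made none. The fit without the block also recovered a smaller share of the changes put in. Its lack of calls therefore does not show a lack of change.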

Additional observations from a re-analysis of the deposited data

Results flagged for a closer look

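Sox10 was the one gene of the 6 whose ratios to the same-label control lay on opposite sides of 0 between date labels for both hairpins. The mean log2 ratio of both hairpin libraries to their control was -1.89 on 3 September and 0.18 on 30 August, a difference of -2.07 between those labels, and the difference between 30 August and the undated libraries was 2.85. These differences of same-label ratios rest on 1 control library a label. In the edgeR interaction model of the dated libraries the difference was -2.26 ± 1.12 on the log2 scale with an adjusted p of 0.743, and the difference from the undated libraries was not tested. On 30 August Sox10 had 8 counts in each hairpin library and 6 in the control, so no hairpin difference was detectable on that date. Of all tested genes, 19.4% had both hairpins on opposite sides of the control on those 2 dates.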

How the results depend on the processing

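Of 816 recomputed fold changes of the 6 genes, 737 kept direction and side of the threshold, 41 moved past it, 1 dropped below it and 37 changed sign. With the replicate block edgeR called 2054 genes for the mean of both hairpins, 1557 for sh900, 1850 for sh902 and 743 for sh902 against sh900, with 2, 1, 2 and 0 of the 6 among them. DESeq2 without the block called 755, 786, 848 and 1035, with 0, 0, 1 and 0 of the 6, and with it 3014, 2590, 2833 and 1783, with 2, 2, 3 and 0. No low-count filter gave 8, 58, 35 and 139 genes without the block. For sh902 against sh900, a filter of 1 CPM in 3 libraries gave 57 and limma-voom 1. With the block, the dated libraries alone gave 1 gene for the mean and 4 for sh900, and 0 of the 6 in any hairpin contrast. The compared groups alone with the block gave 472 genes for sh900, 0 for sh902 and 2595 for sh902 against sh900, with 0, 0 and 2 of the 6 (Sox8 and Cspg4), so the calls of Sox8 and Sox10 against shNT were lost in both of these fits. For 3 September against 30 August, the date label as the only term gave 448 genes and lost Sox8 (adjusted p 0.241), and the dated libraries alone gave 2164. The cause was not tested.

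Leaving out each library in turn, with and without the replicate block, gave 0 to 3637 genes for the mean, 0 to 2912 for sh900, 0 to 3757 for sh902, 0 to 1992 for sh902 against sh900 and 1090 to 3990 for the dates. Each upper end for the hairpins came without the 30 August control. Of the 6 genes it called 0 to 2 for the mean, sh900 and sh902, 0 to 1 between hairpins and 3 to 4 for the dates.

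Signs turned in uncalled values. Nkx2-2 with sh900 was -0.01 by library size alone, -0.02 with the 1 CPM filter, and -0.41 and -0.14 in the dated libraries without and with the block. Cspg4 by date was 0.11 by library size alone, 0.02 with the 1 CPM filter and 0.01 in the dated libraries alone. These date fits held terms for both hairpin group and date label. In the 6 hairpin libraries alone, an alternative chosen after seeing the data, Cspg4 was 0.48 and Olig1 0.08 by date. Leaving out 1 library, log2 values ran from -0.25 to 0.35 for Cspg4 by date and -0.52 to 0.14 with sh900. Those of Nkx2-2 ran from -0.91 to 0.90 for the mean, -0.51 to 1.30 with sh900 and -1.45 to 0.50 with sh902. Those of Olig1 ran from -0.28 to 0.20 for the mean, and of Olig2 from -0.36 to 0.03 for the mean and -0.08 to 0.37 with sh900. Those of Sox10 ran from -4.10 to 0.37 with sh900 and -3.42 to 1.42 between hairpins. Sox8 kept its sign in every fit. Cspg4 per kilobase of the longest transcript was 5.38 CPM. Values of Sox10 and Nkx2-2 on 30 August are limited by depth.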
